A study of Mus musculus with 6 samples.

Results

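Dot1l was overexpressed in a cultured mouse blood endothelial cell (BEC) line, and this account describes which genes were higher and which were lower in the overexpressing cells. The comparison sets the column of counts for OE-BECs against the column for Cont BECs, and its members are all genes with at least 30 raw reads in both libraries together: 12015 of the 24421 genes counted. Another 4805 genes had reads but fewer than 30, and 7601 had no read in either library. The cut lies in a crowded range, since 165 members had 30 to 34 reads and 219 genes just outside had 25 to 29.

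Both groups are the yolk sac BEC line CRL-2581, an endothelial line made from mouse embryonic yolk sac, labelled wild type for Cont BECs and Dot1l OE for OE-BECs. OE-BECs received a lentivirus carrying a nuclease-dead Cas9 fused to the transcriptional activator VP64, guide RNAs against the Dot1l promoter and a green fluorescent protein. Cont BECs received an empty lentivirus, and cells with the green protein were sorted for sequencing. Whether the empty virus carried the green protein or the Cas9 activator, and the sites of the guides, are not given in the sources used here. Cells from 2 to 3 flasks were combined into 1 library a group, so no difference here can be set against a spread between replicates, and no p-value is given. The series holds 6 libraries in all. Of these, a pair of mouse embryonic dermal lymphatic endothelial cell (LEC) libraries, Cont LECs and OE-LECs of the line C57-6064L, carries the same manipulation and is set beside the BEC values where it helps.

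DOT1L is the enzyme that methylates lysine 79 of histone H3, a mark laid down over the bodies of transcribed genes. Its best known partners are the MLL fusion partners AF9, ENL and AF10, which link it to transcript elongation. In endothelium, cell identity is held by ETS, SOX and GATA family transcription factors, and blood vessel subtypes are set by VEGF and Notch signalling for arteries and by COUP-TFII for veins. Yolk sac endothelium is also a place where blood cells arise from endothelial cells early in development.

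Because the guides address the Dot1l promoter, the 250 bases ahead of a RefSeq transcript start of the gene (GRCm38.p6, the mm10 assembly, chr10:80754953-80755202, plus strand) are shown first. Of these bases, 78.4% are G or C. After it stand the same windows of 4 genes that were higher in OE-BECs and that are well known targets of YAP and TEAD, the growth control factors of the Hippo pathway. They are shown because each holds the TEAD core motif GGAATG or its reverse complement CATTCC, in capitals, and their values follow further on. The windows lie at chr19:36119845-36120094 (Ankrd1, minus strand), chr3:145649986-145650235 (Cyr61, minus strand), chr9:102717554-102717803 (Amotl2, plus strand) and chr7:25788734-25788983 (Axl, minus strand). The starts are those of the RefSeq promoter table. In Ankrd1 and Cyr61 they are the outermost start of the gene, while in Dot1l, Amotl2 and Axl they lie inside the gene's full RefSeq span, so that these windows overlap the span.
Dot1l: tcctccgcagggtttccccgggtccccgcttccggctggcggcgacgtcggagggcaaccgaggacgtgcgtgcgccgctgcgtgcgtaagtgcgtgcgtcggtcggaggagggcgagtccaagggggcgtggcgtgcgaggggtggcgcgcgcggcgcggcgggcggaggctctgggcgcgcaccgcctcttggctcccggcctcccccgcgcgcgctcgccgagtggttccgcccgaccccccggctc
Ankrd1: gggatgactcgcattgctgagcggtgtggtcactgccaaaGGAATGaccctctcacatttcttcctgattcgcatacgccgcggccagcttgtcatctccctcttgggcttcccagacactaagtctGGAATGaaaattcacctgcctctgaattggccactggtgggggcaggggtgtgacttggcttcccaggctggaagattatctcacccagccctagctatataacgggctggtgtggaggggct
Cyr61: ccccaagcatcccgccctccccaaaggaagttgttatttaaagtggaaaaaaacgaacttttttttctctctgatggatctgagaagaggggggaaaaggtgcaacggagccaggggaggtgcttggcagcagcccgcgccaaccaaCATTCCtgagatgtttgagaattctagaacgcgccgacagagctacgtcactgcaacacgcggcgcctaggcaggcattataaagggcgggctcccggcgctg
Amotl2: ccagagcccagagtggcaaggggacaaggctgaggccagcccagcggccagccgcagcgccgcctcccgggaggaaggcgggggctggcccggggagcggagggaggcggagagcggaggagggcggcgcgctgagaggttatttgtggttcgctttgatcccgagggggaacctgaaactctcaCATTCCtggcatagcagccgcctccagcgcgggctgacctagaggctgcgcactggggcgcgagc
Axl: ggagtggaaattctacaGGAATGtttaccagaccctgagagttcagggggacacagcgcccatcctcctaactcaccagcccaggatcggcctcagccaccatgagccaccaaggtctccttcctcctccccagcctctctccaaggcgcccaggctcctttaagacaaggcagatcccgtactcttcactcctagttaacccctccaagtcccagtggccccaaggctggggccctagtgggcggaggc
The motif stands 210 and 123 bases ahead of that start in Ankrd1, 103 in Cyr61, 65 in Amotl2 and 233 in Axl. The Dot1l window holds none.

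The libraries held 17685615 reads (Cont BECs) and 13933651 reads (OE-BECs). Normalized counts are the reads divided by the size factor of the library, 1.14 for Cont BECs and 0.876 for OE-BECs. The ribosomal RNA precursor Rn45s made up 5.91% of the Cont BEC library and 10.9% of the OE-BEC library, so total counts hold unequal shares of it. Size factors from total counts were still close, 1.13 for Cont BECs and 0.888 for OE-BECs. Every log2 ratio below is OE-BECs over Cont BECs and carries, where given in brackets, an exact 95% interval from the reads. These intervals cover counting error only, since amplified reads that carry no molecular identifier can be copies of the same molecule, and they say nothing about variation between cultures. Where a pair of values is given without names, Cont BECs stand first and OE-BECs second.

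Dot1l itself (chr10:80755101-80795461) was at 1727 normalized counts in Cont BECs and 4805 in OE-BECs, 2.78-fold higher, a log2 ratio of 1.48 (1.40 to 1.55). That is under the 3-fold rule used for calls below. Dot1l was thus higher in the library labelled Dot1l OE, with an interval far from 0. In LECs the log2 ratio of Dot1l was 1.20. Of the 26 other genes that start within 250 kb of Dot1l, 19 were members, and their median log2 ratio was 0.11, with 11 higher and 8 lower. Only Gadd45b, a stress-inducible growth arrest gene, was called among them, with 18 and 47 reads. Ap3d1, the nearest start, had a log2 ratio of -0.076 (-0.13 to -0.018). Mob3a, a MOB family kinase adaptor gene, stood at 0.88 in BECs and 0.59 in LECs. Lsm7, an RNA decay and splicing factor, was at 0.75 in BECs and -0.026 in LECs, and Btbd2 was at -1.02 and -0.12.

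**Figure D1:**
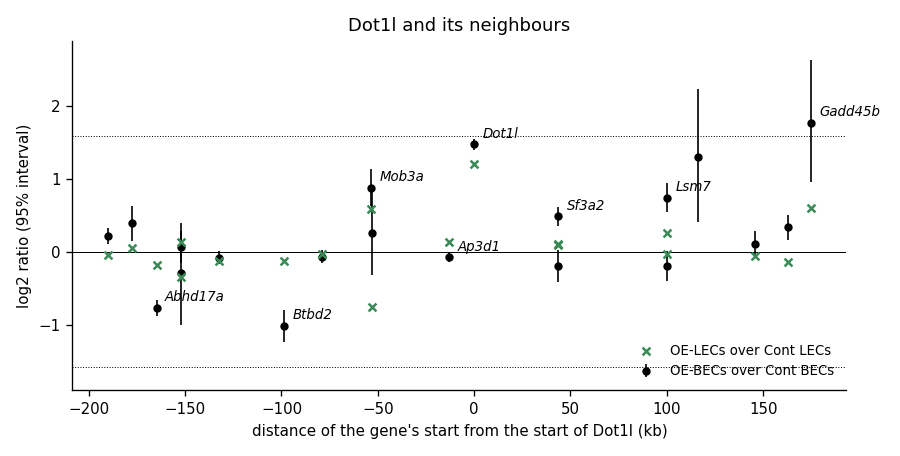
Log2 ratio of Dot1l and the 19 neighbouring members against the distance of each gene's start from that of Dot1l, in kb. Black points are OE-BECs over Cont BECs with exact 95% intervals, green crosses the same ratio in LECs, and dotted lines mark 3-fold. Dot1l stands at 1.48, and only Gadd45b lies past 3-fold.

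The labelled cell type was checked against marker genes. Of 30 pan-endothelial markers, 29 were members, and their sum was 15583 CPM (counts per 1000000 reads of the library) for Cont BECs and 10837 CPM for OE-BECs. Pecam1, the junction receptor CD31, was at 17152 and 14149 normalized counts, and Kdr, the main VEGF receptor, at 11170.0 and 9062. Prox1, the lymphatic master regulator, had 0 reads in both libraries, while Lyve1, a hyaluronan receptor often used to mark lymphatic vessels, was at 9353 and 16884. The leukocyte marker Ptprc and the epithelial marker Epcam had 0 reads in both. Among 16 macrophage markers 7 had no read, Adgre1, Itgam and C1qa among them, while Cd68, a lysosomal protein, had 1093 and 448 reads, Cd14 54 and 19, and Lyz2 (lysozyme) 40 and 7, called lower. The list summed to 1206 and 506 reads. Among 13 erythroid markers 10 had none, the globins included. Of 17 fibroblast markers 14 had under 30 reads, Dcn, Col3a1 and Thy1 with 0. The list summed to 1733 and 214 reads, most of them from Fbln2, with 1628 and 112. Fbln2 and Pi16, with 44 and 3 reads, were its 2 called genes, both lower. Pdgfra, the list's other member, was higher, with 39 and 57 reads. Under 30 reads, Col1a2 had 0 and 17 and Col1a1 11 and 3. The part of such cells in other results was not tested. Of 15 smooth muscle and pericyte markers 12 had under 30, with Rgs5 and Des at 0. Among 35 epithelial genes 28 had under 30 reads, and Krt5 and Krt14 had 0 in both libraries.

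A call, after the rule of the study's methods, needed a ratio above 3-fold between the normalized counts and a value of 3 or more in the library with more. In OE-BECs 172 genes were called higher, 1.43% of the 12015 members, and 250 were called lower, 2.08%. Of these, 59 higher genes (0.491% of members) and 132 lower genes (1.1%) had their whole 95% interval past 3-fold. Over all members the median log2 ratio was -0.02, and 48.1% were higher in OE-BECs. The whole interval lay above 0 in 28.5% of members and below 0 in 32.1%. These shares are the background for the counts of list members below. The lower genes were read more deeply than the higher ones. The median number of reads in the library with more was 197 for the lower genes and 52 for the higher ones, and 61 lower genes against 13 higher genes had at least 1000 reads there. Summed over the called genes, the higher set went from 1572 CPM in Cont BECs to 5928 CPM in OE-BECs, and the lower set from 22378 CPM to 4568 CPM. Among members with 30 to 100 reads 112 genes were called higher (8.04% of them) and 87 lower (6.25%). Among those with 1000 to 3000 reads 8 (0.239%) and 41 (1.22%) were. For the calls below that rest on few reads, the shares at 30 to 100 reads are the nearer background. A set of 7 members had 0 reads in OE-BECs, and no called gene had 0 reads in Cont BECs. Calls close to 3-fold depended on the scaling: of the genes named below Dusp4 was not called with TMM factors or total counts, and Sema6a, Itga1 and Fgf1 were not called with total counts that leave out Rn45s. In bulk RNA a lower value can mean fewer cells with a transcript or less of it per cell, and these cannot be told apart.

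**Figure D2:**
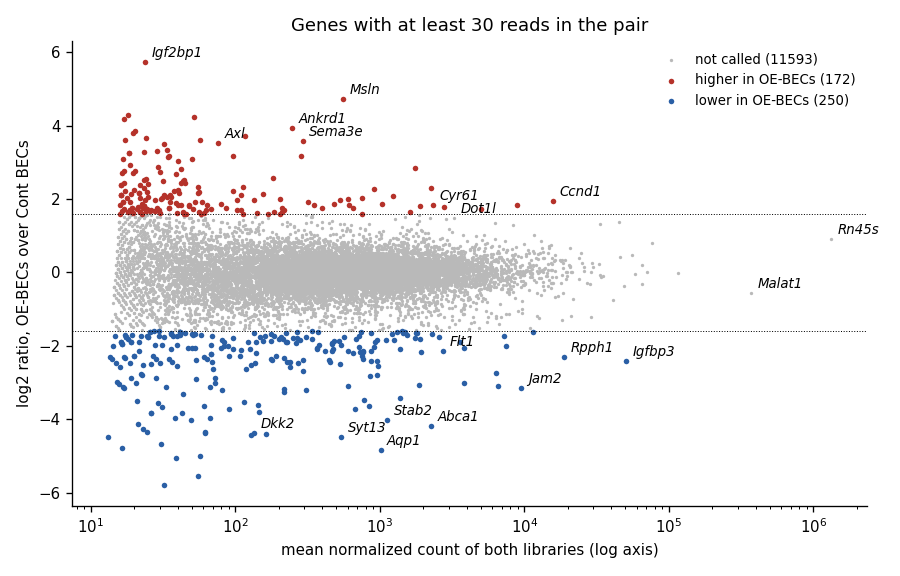
Log2 ratio of OE-BECs over Cont BECs for the members with reads in both libraries, against the mean normalized count of both (log axis). Red points are genes called higher (172), blue points genes called lower (250 in all), grey points genes not called, and dotted lines 3-fold. The 7 genes called lower with 0 reads in OE-BECs have no ratio and are not drawn. Lower genes reach further to the right than higher ones.

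The strongest differences were of very different kinds of gene. Ranked by the nearer limit of the interval, the 15 leading lower genes held endothelial receptors, transport and signalling genes. Aqp1, the water channel of endothelium and red cells, went from 1955 to 68.5 normalized counts, Syt13, a synaptotagmin, from 1039.5 to 46.8, and Abca1, the cholesterol exporter that loads HDL, from 4302 to 239 (log2 -4.17). Aldh1a7, an aldehyde dehydrogenase, went from 1244 to 93.6. Ttyh1, a tweety family membrane protein, went from 1552 to 123, and Cttnbp2, a cortactin-binding protein gene, from 313 to 14.8. These drops left a small fraction of the control level, but all of these genes could still be read in OE-BECs. Others were lost from view. Fam84a, with 133 reads in the control, had 0 after overexpression, at least 34-fold lower against a floor of 3 reads. Ctsg, the neutrophil protease cathepsin G, had 59 and 0 (at least 15.1-fold lower), the sialyltransferase gene St8sia6 57 and 0 (at least 14.6-fold), and Csf2rb, the shared receptor chain for GM-CSF and IL-3, 56 and 0 (at least 14.3-fold). The remaining genes with 0 reads in OE-BECs were Gm5885 (45 reads in Cont BECs), Ceacam16 (39) and Palmd (37).

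Among the 15 leading higher genes were secreted guidance, growth and matrix proteins. Msln (mesothelin, a surface glycoprotein) went from 41.2 to 1079 normalized counts. Sema3c, a secreted semaphorin, went from 8.76 to 106. Il24, an IL-10 family cytokine gene, went from 56.9 to 512. Tinagl1, a basement membrane protein, had the most reads of the 15 in Cont BECs apart from Cxcl12 and went from 426 to 3090.0 (log2 2.86). Spon1, the adhesion protein F-spondin, went from 19.3 to 172, and Ablim3, an actin-binding LIM protein, from 5.25 to 98.2. Most of these genes were scarce in Cont BECs. Igf2bp1, a fetal RNA-binding protein that stabilises growth transcripts, had 1 and 41 reads, a log2 ratio of 5.74 with a wide interval (3.18 to 11.08). P2rx2, an ATP-gated channel, had 2 and 30 reads (4.29, 2.31 to 7.40). Camkk1, a calmodulin-dependent kinase kinase, had 12 and 79 reads, and Ccdc64b 4 and 39.

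**Figure D3:**
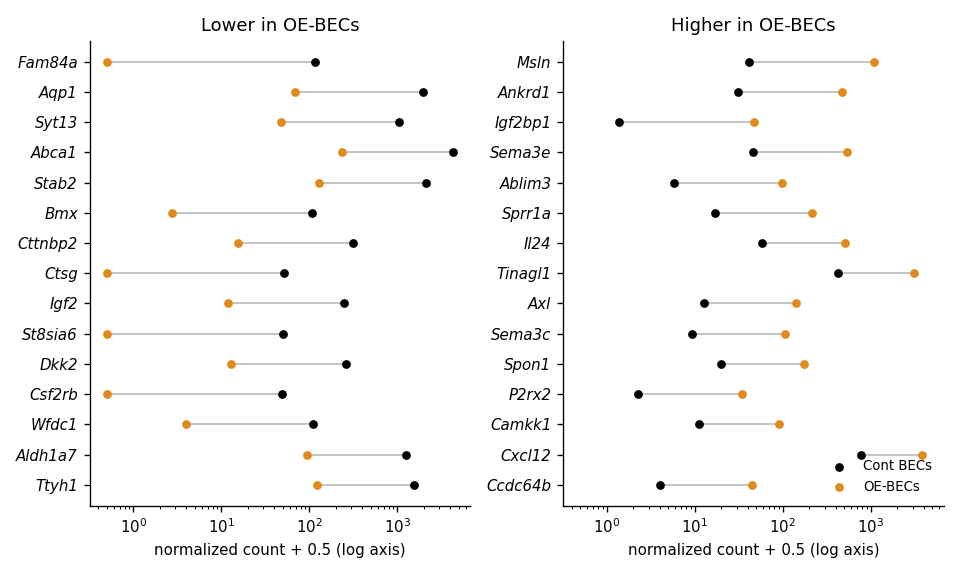
Normalized counts plus 0.5 (log axis) in Cont BECs (black) and OE-BECs (orange) of the 15 genes per direction with the nearer limit of the interval furthest from 0. The leading lower genes include several with over 1000 normalized counts in Cont BECs, such as Aqp1 (1955 and 68.5), while most of the leading higher genes had under 100 there, such as Ankrd1 (30.7 and 465).

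Most endothelial marker genes were lower in OE-BECs, but all 30 still had reads. Of 29 pan-endothelial markers that were members, 25 were lower, 7 of them called, and none was called higher, beside the 2.08% of all members called lower. The median log2 ratio was -0.48, against -0.02 over all members. Vwf, the clotting and platelet adhesion factor stored in endothelial granules, went from 3158 to 697 normalized counts. Cldn5, the tight junction claudin of endothelium, went from 11152 to 3369 (log2 -1.73, -1.79 to -1.67). Clec14a and Mmrn2, a receptor and its matrix ligand at sprouting vessels, went from 3939.9 to 1160.2 and from 413 to 119.9. Tspan18, a tetraspanin, went from 1603 to 301, and Adgrl4, an adhesion receptor also called ELTD1, from 1451 to 389. Other core markers differed little. Egfl7, a secreted vessel protein, was at -0.22 on the log2 scale, Emcn (endomucin) at -0.20, S1pr1 (the sphingosine-1-phosphate receptor) at -0.025, Nos3 (endothelial nitric oxide synthase) at 0.05 and Eng (endoglin) at 0.066. Cd34, a stem and endothelial cell sialomucin, was higher, at 3933 and 6761, a log2 ratio of 0.78.

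Most of the factors that hold this identity leaned the same way. Among 24 endothelial transcription factors 18 were lower, 3 were called lower and 1 higher, beside 2.08% and 1.43% of all members, with a median log2 ratio of -0.24. Sox18, a SOXF factor of vessel and lymphatic development, went from 1258 to 282 normalized counts, Hlx, a homeobox factor, from 1841 to 579, and Lmo2, a bridging factor of the blood and endothelial GATA complexes, from 1319 to 424. Mef2c, Sox17, Ets1 and Fli1 were lower without a call, at -1.08, -0.96, -0.85 and -0.62 on the log2 scale. Nr2f2, which encodes the venous factor COUP-TFII, was at -0.47. Erg was at -0.27, and Bcl6b and Tal1 were at 0.072 and -0.0066. In all 6 factors were higher, among them Gata2 at 0.37 (0.28 to 0.47) and Lyl1 at 0.66. Gata6 was at 1.22 on 19 and 34 reads. Gata3 was called higher on few reads, at 7.88 and 26.3 normalized counts (0.57 to 3.03).

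In the VEGF and angiopoietin axis most receptors were lower, and the ligands went both ways. Of 14 members 2 were called lower and 1 higher, beside 2.08% and 1.43% of all members, with a median log2 ratio of -0.51. Flt1, the VEGF decoy receptor, was at 4465 and 1014 normalized counts. Tek and Tie1, the angiopoietin receptor and its partner, were at -1.55 and -1.20 on the log2 scale, and Ptprb, the phosphatase that restrains them, at -1.22. Bmx, a kinase of arterial endothelium, had 123 and 2 reads, a log2 ratio of -5.56 (-8.62 to -3.68). Kdr, Nrp2 and Vegfa differed little (-0.30, 0.092 and 0.023). The ligand gene Pgf was lower without a call, at 5190 and 2380 (log2 -1.12). Angpt2, the ligand that opposes Tek signalling, stood at 61.3 and 129, and Apln, the tip cell ligand apelin, at 3931 and 13921 (log2 1.82, 1.77 to 1.87).

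Most arterial and Notch genes were lower. Of 17 members 14 were lower, 5 were called lower (2.08% of all members were) and none higher, and the median log2 ratio was -0.73 against -0.02 over all members. Dll4, the Notch ligand of arteries and tip cells, was at 2379 and 725 normalized counts. Its relatives Jag2 and Jag1 were at -1.21 and -0.29 on the log2 scale, and Efnb2, the arterial ephrin, at -1.17. Gja5, the arterial connexin, and Hey1, a Notch target, were called on few reads, from 33.3 to 6.85 and from 44.7 to 11.4. Alox5ap, which presents arachidonic acid to lipoxygenase, went from 193 to 51.4. Dkk2, a Wnt modulator made by endothelium, had 295 and 11 reads (log2 -4.36, -5.38 to -3.50). Notch1 and Notch4 were at -0.21 and -0.35, whereas Notch2 (1.21), Gja1 (1.16), another connexin, and the Notch target Nrarp (0.57, 0.47 to 0.67) were higher. Hes1, another Notch target, was at -0.51. In LECs the median of this list was 0.26 over 15 members, with 1 called higher and none lower.

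Kit and hemogenic genes divided. Kit, the stem cell factor receptor carried by hemogenic endothelium, went from 6146 to 1466 normalized counts, a log2 ratio of -2.07 (-2.15 to -1.98). Cbfa2t3, a corepressor of the Tal1 complex, was at -1.35 and Mecom at -0.89. Runx1, the factor needed for blood cell emergence, stood at 126 and 328, higher but under 3-fold (log2 1.38), and Cd44, an adhesion receptor, at 1.45. Over the list of 12 members 2 were called lower (2.08% of all members were), none higher, and the median was -0.29.

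Of 9 scavenger and lectin receptor members 6 were lower and 3 were called lower, beside 2.08% of all members. None was called higher, and the median log2 ratio was -0.78. Stab2, the hyaluronan scavenger receptor of sinusoids, went from 2112 to 130.2 normalized counts, and its relative Stab1 from 17584 to 7485 without a call. Gpihbp1, which carries lipoprotein lipase across capillary endothelium, went from 686 to 155. Lyve1 in contrast was higher (log2 0.85).

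The vasoactive genes and the clotting genes moved both ways. Ednrb, the endothelin B receptor, was at 11759 normalized counts in Cont BECs and 1385 in OE-BECs (log2 -3.09), while Edn1, the endothelin ligand, had 6 and 31 reads (2.75, 1.47 to 4.30). Calcrl, the adrenomedullin receptor, was at -1.51, and its ligand Adm at 1.32. Ptger4, a prostaglandin receptor, was called lower at 203 and 48. So in both ligand and receptor pairs the receptor was lower and the ligand higher, and Adm and Calcrl were not called. F8, clotting factor VIII, went from 1187 to 265, close in ratio to Vwf, its carrier. F3 (tissue factor) and F2r (a thrombin receptor) were called higher, from 12.3 to 40 and from 102 to 317. Of 16 members of the clotting list 8 were higher and 8 lower.

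In the channel and junction lists the calls were on a few members. Of 9 potassium channel members 3 were called lower, beside 2.08% of all members, with a median log2 ratio of -0.77. Kcnj2, an inward rectifier that sets the membrane potential, went from 265 to 21.7 normalized counts, Kcnd3 from 297 to 58.2 and Kcnh1 from 129.6 to 30.8. Of 24 calcium, sodium, chloride and TRP channel members 1 was called lower, Clca2, from 218 to 37.7. Cftr, the chloride channel, was at -1.31 on the log2 scale. Among 18 claudin and junction members 3 were called lower, Cldn5, Gja5 and Jam2. Jam2, a junctional adhesion molecule, went from 17088 to 1939 (log2 -3.14, -3.21 to -3.07). Cdh5, the endothelial cadherin, was at -0.76, Tjp1 at -0.68 and Esam at -0.36, and Cdh2, the neural cadherin, at 0.80. Of 12 protocadherin and Fat cadherin members 8 were lower, with Dchs1 at -1.53, Fat4 at -1.16 and Pcdh12 at -1.19, and the median was -0.85. Fat2 and Celsr1 were called higher on few reads, 13 and 39 for Fat2 and 4 and 26 for Celsr1.

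Insulin-like growth factor (IGF) genes had a median log2 ratio of -0.85 over 14 members. Of these 5 were called lower and 1 higher, beside 2.08% and 1.43% of all members. Both ligands had at most 10 reads in OE-BECs. Igf1 had 67 and 2 reads (log2 -4.68, -7.76 to -2.77), and Igf2 had 282 and 10 (-4.43). Igfbp3, Igfbp5 and Igfbp7, which bind IGF outside the cell, were called lower too. Igfbp3 went from 85023 to 16057 normalized counts, the largest drop in CPM of any called gene (5490 to 1009). Igfbp7 went from 233 to 42.3, and Igfbp5 from 86 reads to 2. Igfbp4 stood at 11407 and 19028, higher without a call. The receptors parted, with Igf1r at 1.31 and Igf2r, the clearance receptor, at -1.32. Igf2bp1 was the called higher member, and its relatives Igf2bp2 and Igf2bp3 were at 0.23 and -0.14. Igf2 is imprinted, and of 13 imprinted growth genes 3 were called lower (Igf2, Airn and Plagl1) and 1 higher, the cell cycle inhibitor Cdkn1c, from 13.1 to 42.3.

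Matrix genes exchanged members. Lower were Fbln5, an elastic fibre protein, from 11117 to 1665 normalized counts, Fbln2 from 1426 to 128, the laminin chain gene Lama3 from 127 to 17.1, and Tgfbi, a collagen-binding protein, from 1664 to 239. Col4a4, a basement membrane collagen chain, was called higher, from 9.63 to 37.7. Nid1 (nidogen), a linker of the basement membrane, was at 19230.3 and 48043, a log2 ratio of 1.32 and among the largest CPM gains. Of 25 collagen members 1 was called in each direction, and of 15 laminin and basement membrane members 3 were called lower and 1 higher. Over all members 2.08% were called lower and 1.43% higher. Among 28 matrix proteases and inhibitors 4 were called lower. Adamts5, an aggrecanase, went from 12003 to 2999, and Mmp15, a membrane metalloprotease, from 1241 to 282. Adam12, a shedding protease, was called higher with Mmp3, from 265 to 955. Among 19 integrin members Itga1, Itga9 and Itgax were called lower and Itgb5 higher, from 48.2 to 156. Tgfb3, a TGF-beta ligand, went from 1085 to 128, while Ltbp1, which holds latent TGF-beta in the matrix, went from 446 to 1615. Transcription factors of the mesenchymal transition were not called, with Snai1 at 0.0079, Snai2 at 0.47, Zeb1 at -0.08 and Zeb2 at 0.58, and Vim (vimentin) was at -0.044. S100a4, often used as a mesenchymal marker, was called higher, from 41.2 to 178.

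Complement and hypoxia genes leaned lower. Of 11 complement members 10 were lower, with a median log2 ratio of -0.84, and C3, the central component, went from 2234 to 529 normalized counts. Of 16 hypoxia targets 11 were lower, and Ddit4 (an mTOR inhibitor) and Ndrg1 were called, at -1.84 and -1.82. Hif1a was at -0.0074 and Epas1, which encodes the endothelial HIF2A, at -1.22. Of 20 Hox and cofactor genes 17 were lower with none called, and 14 had the whole interval below 0, as did 32.1% of all members. Hoxd8, with 1075 and 513, and Hoxd4, with 603 and 232, were at -1.07 and -1.38, and the median was -0.50. In LECs 17 of 20 members of that list were lower as well, with a median of -0.26.

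Targets of YAP and TEAD were the group with the most calls on the higher side. Of 28 members 20 were higher, 17 with the whole interval above 0, and 6 were called higher (1.43% of all members) against 1 called lower. The median log2 ratio was 0.28. Ankrd1, a nuclear ankyrin repeat protein, went from 30.7 to 465 normalized counts. Cyr61 and Ctgf, the matricellular proteins CCN1 and CCN2, went from 1028 to 3653 and from 842 to 2938. Amotl2, an angiomotin that feeds back on YAP, went from 1251 to 4323. Axl, a TAM receptor kinase, went from 12.3 to 140.5. F3 was the other call, and Igfbp3 was the lower one. The list and its counts also hold the factors and cofactors themselves. None of these was called, with Yap1 at -0.20, Wwtr1 (TAZ) at -0.45, Vgll4 at -0.89, Tead1 at 0.52 and Tead4 at 1.01. In LECs Ankrd1, Cyr61, Ctgf and Amotl2 stood at 0.63, -0.25, 0.30 and 0.12, and Axl at 2.60, the only called one of the list there.

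The promoter windows printed above belong to this group. The search ran over windows of 300 bases, 250 before the start and 50 after, and covered both strands. GGAATG was in 13 of 24 windows of the list (54.2%), in 4 of the 5 windows found for its 6 members called higher (Ctgf had no match), in 27 of 137 windows of all genes called higher (19.7%), in 33 of 222 of those called lower (14.9%), in 12.2% of all members' windows and in 14.7% of all 32851 mouse windows. The AP-1 motif TGANTCA, which reads the same on both strands and was counted whether or not it overlapped GGAATG, was in 19 of 137 windows of higher genes (13.9%), in 12 of 222 of lower genes (5.41%), in 5.09% of all members' windows and in 7.81% of all windows. Several windows can belong to 1 gene. A match is a string of letters and not a measured binding site. The list was made of known TEAD targets, with the factors themselves, to begin with.

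The AP-1 and ERK responders showed a different mixture. Fosl1, the AP-1 subunit FRA1 that follows sustained ERK activity, was called higher, from 240.0 to 958 normalized counts, with Jun at 0.78 and Maff at 1.37. Of 22 members of the AP-1 and immediate early list 9 were higher and 13 lower, with a median of -0.17. Fos was at -1.39, Egr3 at -1.35 and Nr4a2 at -1.32, none of them called, while Atf3 was at 0.69, Klf6 at 0.73, Ier3 at 0.63, Myc at 0.41 and Egr1 at 0.34. Nr4a3 and Btg2, an antiproliferative gene, were called lower, from 26.3 to 6.85 and from 2723 to 787. Among 24 ERK feedback regulators and responders Ccnd1 and the phosphatase Dusp4 were called higher, Dusp4 barely past 3-fold. Spry1, an inhibitor of growth factor signalling, was called lower, from 134 to 33.1. Dusp6 was at -1.05, Epha2 at 1.20 and Etv4 at 1.06.

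Cell cycle and DNA replication genes were nearly uniform in direction. Of 45 members 42 were higher and 40 had the whole interval above 0, beside 48.1% and 28.5% of all members. The median log2 ratio was 0.54. The size was modest, and only Ccnd1 (cyclin D1) was called, from 6544 to 25005 normalized counts. Mybl2, a proliferation factor, was at 336 and 753 (log2 1.16), Foxm1 at 2027 and 3767, and Rrm2, the ribonucleotide reductase subunit, at 1815 and 3405. The summed level of the list was 5263 CPM in Cont BECs and 8224 CPM in OE-BECs. Ccnd2 went the other way (log2 -0.91), as did E2f2 (-0.81) and Ccnd3 (-0.20). In LECs 18 of 45 were higher, with a median of -0.06.

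Secreted signals and their receptors were called in both directions. Of 24 semaphorin, plexin and neuropilin members 3 were called higher and 4 lower, beside 1.43% and 2.08% of all members. Sema3e, the ligand of Plxnd1 that repels endothelial cells, went from 45.5 to 540.1 normalized counts, while Plxnd1 itself was at -0.77. Sema3c was the strongest in ratio (3.60), and Sema5a went from 17.5 to 62.8. Sema3g, an arterial semaphorin, went down, from 459.8 to 83.4, as did Sema7a, Sema6a and the receptor gene Plxnb1. Of 12 chemokine members 3 were called higher and 1 lower. Cxcl12, the ligand of CXCR4, went from 765 to 3788 (log2 2.31). Cxcl10 and Ccl5 were called on few reads (8 and 27, 6 and 24), and Cxcl1 was at 1.29. Among all members with 30 to 100 reads 8.04% were called higher. Of 27 other growth factor members 19 were higher, with a median of 0.47. Ereg, an EGF receptor ligand, went from 152 to 546, Hbegf was at 1.12, and Fgfr3 was called higher from 8 reads to 29. Hgf and Fgf1 were called lower, from 102 to 20.6 and from 63.1 to 20.6.

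**Figure D4:**
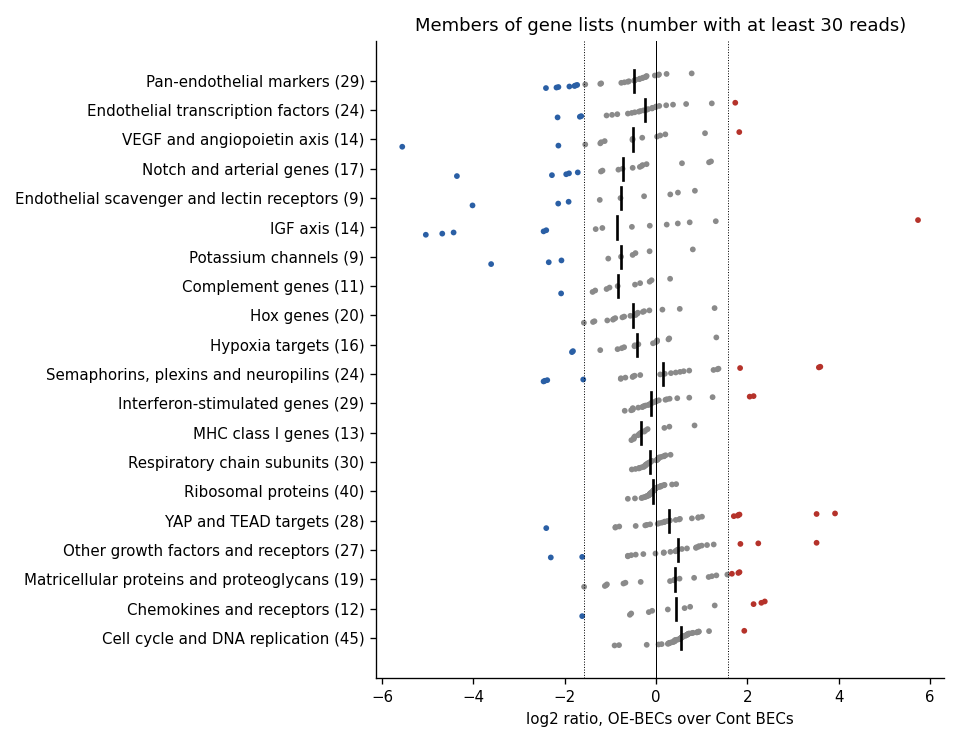
Log2 ratio of OE-BECs over Cont BECs for the members of 20 gene lists, 1 point a gene, with the number of members in brackets. Blue points were called lower, red points higher, grey points neither, black bars are medians and dotted lines 3-fold. Medians run from -0.85 for the IGF axis to 0.54 for cell cycle genes.

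Some genes known from other tissues were higher. Sprr1a, a cornified envelope protein also made in stressed cells, went from 16.6 to 217 normalized counts, and Krt80, a keratin, from 42 to 164. The other keratins of squamous and simple epithelium were at or near 0 reads in both libraries, apart from Krt20 (6896 and 9558) and Krt10 (85.8 and 66.2). Msln was the only called gene of the 19 mesothelial markers. Of the others Cldn15 had 48 and 55 reads, Krt19 0 and 7, and Upk3b, Bnc1 and Calb2 none. Among 17 S100 and annexin members 11 were higher, S100a4 and S100a7a called, and S100a6 stood at 4843 and 11814 (log2 1.29).

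Metabolic and housekeeping groups set the scale for these values. The median log2 ratio was -0.07 over 40 ribosomal protein genes, -0.12 over 30 respiratory chain genes and 0.24 over 18 glycolysis genes, with no call in any of them, and Gapdh was at 0.0059. Heat shock genes had a median of 0.32 over 14 members and unfolded protein response genes 0.23 over 24, again without calls. Cholesterol genes had a median of 0.09 over 26 members. 1 was called in each direction there, Abca1 being the lower one. None of 55 histone and DNA modifying enzymes was called, with a median of -0.16, the highest being Ezh2 at 0.59 and the lowest Hdac9 at -1.39. Of Dot1l's own partners and elongation factors none was called. Mllt3 (AF9) was the lowest at 3591 and 1301 (log2 -1.47), and Aff3 was at 1.04. Mllt3 was at -1.18 in LECs as well.

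Interferon genes went both ways in BECs, mostly by little. Of 29 interferon-stimulated members 2 were called higher, Oasl1 and Cxcl10, both on few reads, and the median was -0.11. The whole interval lay below 0 in 15 members and above 0 in 8. Oas3 was higher without a call, at 853 and 2014 normalized counts (log2 1.24). In LECs 28 of the 29 were higher and 12 were called higher, Oasl1 and Cxcl10 among them, with a median of 1.49. This difference between the cell types was not tested. The 13 members of the MHC class I list had a median of -0.33, no call, and 10 members lower.

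Set beside LECs, the BEC difference was wider. The interquartile range of log2 ratios over members was 0.557 in BECs and 0.276 in LECs, on lower read totals in BECs. The pairs also differed in RNA make-up. Rn45s took 5.91% of the Cont BEC reads and 10.9% of the OE-BEC reads. Its share of the LEC pair was 0.0534% (control) and 0.0632% (overexpression). Whether such differences in make-up bear on the wider BEC spread was not tested. Under the same rule OE-LECs had 103 genes called higher (0.86% of 11971) and 43 called lower (0.359%). The BEC and LEC pairs share no library. Of the 172 genes called higher in BECs 120 had at least 30 reads in the LEC pair. Of those 102 were higher in OE-LECs, 24 were called higher, none was called lower, and the median LEC log2 ratio was 0.62. Of the 250 called lower 205 had such reads, 178 were lower in OE-LECs, 32 were called lower and 3 higher, and the median was -0.70. Over all 11519 shared members 50.8% were higher in OE-LECs, with a median of 0.0038. The genes called lower in both included Stab2, Sox18, Kit, Vwf, F8, Gpihbp1, Ednrb, Fbln5, Tspan18, Kcnj2, Mmp15, Clca2 and Igf1. Those called higher in both included Msln, Sema3c, Axl, Ccl5, Cxcl10, Mmp3, S100a4, Oasl1 and Fat2. Other genes stood apart in size between the cell types, without a test of that difference. They were picked by their BEC ratios, which by itself favours smaller ratios in LECs. Aqp1 was at -4.83 in BECs and -1.19 in LECs, Abca1 at -4.17 and -1.30, Cxcl12 at 2.31 and -0.13, and C3 at -2.08 and 0.033.

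**Figure D5:**
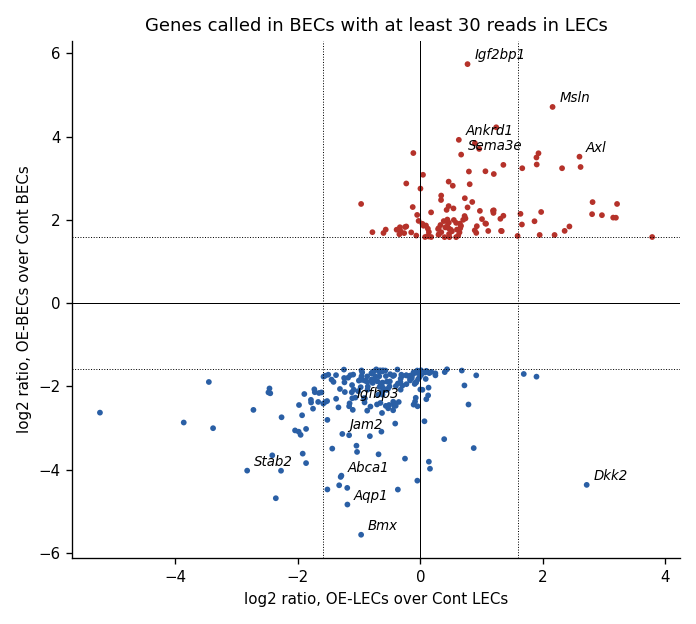
Log2 ratio in BECs (vertical axis) against the same ratio in LECs (horizontal axis) for genes called in BECs with at least 30 reads in the LEC pair. Of these 120 were called higher (red) and 205 lower (blue). Genes with 0 reads in a library have no ratio and are not drawn, Fam84a, Ceacam16 and Palmd among them. Dotted lines mark 3-fold. Each gene had to pass 3-fold on the BEC axis but not on the LEC axis, which by itself favours points nearer to 0 in LECs. Dkk2 stands at the lower right, at 2.71 in LECs and -4.36 in BECs.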

How the data were processed

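RNA of the cell line was made into 1 library a group with ScriptSeq v2. The authors trimmed adapters with skewer, aligned the reads to mm10 with STAR, counted reads per gene with VERSE and deposited raw counts, whole numbers per gene symbol with no normalization. The submitters' processing notes name STAR and mm10. Depth was 17685615 reads (Cont BECs) and 13933651 (OE-BECs), where a floor of 3 reads is 0.170 and 0.215 CPM.

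Size factors came from the median of ratios of DESeq2 1.42.0 (R 4.3.3) on the pair of libraries. Exact 95% intervals (Clopper-Pearson) of each ratio were computed from the reads with scipy 1.17.1. With 1 library a group there is no test. The steps were tested on simulated data. Alternatives were other scalings (TMM of edgeR 4.0.16, total counts with or without Rn45s, size factors of the 4 cultured or all 6 libraries), read minimums of 1 and 100, a fold of 2, the interval rule, a pseudocount of 1, and leaving out small RNA genes. Medians raise any count under 3 reads in a library to the floor of 3 reads.

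The genes described and the 60 gene lists were chosen with earlier results of these data known. Named genes were Dot1l and genes starting within 250 kb, the 15 per direction with the furthest nearer interval limit (no microRNA, small nucleolar RNA or predicted symbols), the 10 per direction with the largest CPM difference, list members and genes at 0 reads in 1 library. Positions and promoter sequences are from RefSeq on GRCm38.p6, matched by symbol or synonym, and gave positions for 11980 of the 12015 members. The values of a few single list members are not reported here.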

Additional observations from a re-analysis of the deposited data

Results flagged for a closer look

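Dkk2 moved in opposite directions in the cell types. It had 295 and 11 reads in Cont BECs and OE-BECs, a log2 ratio of -4.36, and 10.8 and 71.1 normalized counts in Cont LECs and OE-LECs, a log2 ratio of 2.71. The log2 ratio in BECs minus that in LECs was -7.08. The difference was not tested, since each group has 1 library. The other genes called lower in BECs and higher in LECs were Hdc (-1.70 and 1.69) and Dach1 (-1.76 and 1.89), both chosen after their values were seen and both on under 100 reads in the BEC pair.

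The MHC class I list had a median log2 ratio of -0.33 in BECs and 0.70 in LECs, a difference of -1.03 over 13 members in each. Of these 10 were lower in OE-BECs and 12 were higher in OE-LECs. This difference was not tested either.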

How the results depend on the processing

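The counts of called genes followed the read minimum and the fold. Without a minimum of reads 1186 genes were called higher and 779 lower, so the balance turned, and with at least 100 reads 60 and 163. A fold of 2 gave 453 and 657, and the rule that the whole interval lies past 3-fold gave 59 and 132. Under 5 other scalings and without small RNA genes both counts stayed within 1.5 times 172 and 250. Higher genes made up 40.8% of calls, from 37.1% (total counts) to 43.3% (total counts without Rn45s). The scalings shifted a list's median by at most 0.0396, and 1 of 60 medians changed sign, that of NRF2 and metallothionein genes, to -0.0315 with total counts. With at least 100 reads the median of the clotting list turned to -0.16. With members down to 1 read, leaving out genes at or under 3 reads in both libraries, those of collagens (0.27), fibroblast markers (0.16), smooth muscle markers (0.38) and netrin, Slit and Robo genes (0.0181) turned positive. Of the 128 named genes that were called, none changed direction. Total counts without Rn45s lost the calls of Itga1, Sema6a, Efnb1, Cxcr2 and Fgf1, size factors of the 4 cultured libraries those of Sema6a and Efnb1, size factors of all 6 libraries that of Sema6a, and TMM factors and total counts that of Dusp4. No paired analysis was possible because each group has 1 library, and for the same reason no library could be left out. Depth limits the higher genes most, with a median of 52 reads in OE-BECs.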

Other observations

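Several genes outside the lists were picked after their values were seen. A few of them are known from myeloid cells. Ltf (lactoferrin) was at 319 and 66.2 normalized counts, Ms4a6b at 146 and 16, Nod2, a sensor of bacterial wall fragments, at 230.3 and 68.5, and Prg2, an eosinophil granule protein, at 67.4 and 11.4. Pglyrp1, a peptidoglycan-binding protein, had 56 and 3 reads, a log2 ratio of -3.84 (-6.16 to -2.22). In LECs the log2 ratios of Ltf, Prg2 and Pglyrp1 were -1.06, -2.73 and -1.87. Nod2 was at -0.56 there, Ms4a6b had 10 and 7 reads, and Ctsg, which had 59 and 0 reads in BECs, had 0 and 2. Of the macrophage markers, Csf1r had 8 and 16 reads in BECs and Fcer1g 2 and 7.

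Abundant structural RNAs differed in both directions. Rpph1, the RNA of RNase P, was at 31264 and 6364 normalized counts, Rmrp, the related RNA of RNase MRP, at 9659 and 3673, and Rprl3, an RNase P RNA-like gene, at 604 and 153. The nuclear RNA Malat1 was lower (log2 -0.55), while Rn45s was higher (0.92) and 58 small nucleolar RNA genes had a median log2 ratio of 0.42. Rpph1 had under 6 normalized counts in each LEC library.

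Among larger called genes outside the lists, Hmga2, a fetal chromatin protein, was at 2319.8 and 7719, and at 1.11 on the log2 scale in LECs. Ccbe1, which helps to activate VEGF-C, was at 312 and 1509.6, Rras2, a RAS family GTPase, at 468 and 1995, and Pim3, a kinase, at 215 and 845. Lower were Sh3pxd2a, the podosome scaffold TKS5, at 17278 and 5643, Rgs2, a brake on G protein signalling, at 3519 and 1099.6, Npnt, the integrin ligand nephronectin, at 1499 and 210.1, and Vash1, the angiogenesis inhibitor vasohibin, at 1499 and 420.2. Npnt was at 0.066 in LECs. The interferon-inducible GTPases Gbp4 and Gbp8 were called lower, at -1.66 and -1.65, beside a median of -0.11 for interferon-stimulated genes.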
